A study of Sus scrofa with 12 samples.

Results

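The genes described here encode the protamines PRM1, PRM2 and PRM3 and the transition proteins TNP1 and TNP2. They were taken by gene symbol and are 5 of the 21674 genes in the deposited table of coding genes. In spermatids, the haploid cells that follow meiosis, most histones leave the DNA and are replaced first by transition proteins and then by protamines, small basic proteins that pack the sperm nucleus tightly. Their mRNAs are made in round spermatids, held in the cytoplasm bound to protein, and translated later, in elongating spermatids. Protamine 1 is the main protamine of boar sperm, whereas PRM3 lies beside the protamine genes but encodes an acidic protein of the spermatid cytoplasm.

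The study asked how testis transcripts differ with age and breed, in the Hezuo pig (HZ), a small plateau breed of China, and the Landrace pig (LC), a lean commercial breed. Testes were obtained by castration from boars kept under the same conditions, and 3 boars gave 1 library each in the groups Ha (HZ, 30 days old), Hb (HZ, 120 days old), La (LC, 30 days old) and Lb (LC, 120 days old). Libraries are named by group and number, as in Ha1. Levels are given as estimated counts, as CPM or as FPKM. CPM are counts scaled to library size with TMM, and FPKM is also scaled by transcript length. Levels of different members are compared on FPKM. Shares of counts, sums of markers and the gene leading each marker list are not scaled by length.

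The estimated counts of all coding genes summed to 23758931, 22538417 and 23490893 in Ha1, Ha2 and Ha3, and to 20678367, 22707568 and 17165519 in Hb1, Hb2 and Hb3. In La1, La2 and La3 they came to 22233155, 18523274 and 23563949, and in Lb1, Lb2 and Lb3 to 23253496, 22951618 and 18998959. Hb3 was the shallowest library.

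Markers of the testis were checked first. The 10 round spermatid markers, led by ACTL7A, an actin-like protein of the acrosome region, summed to 3.84, 3.27 and 3.51 CPM in Ha, 4.65, 3.99 and 2.96 in La, 2083, 1883 and 1994 in Hb, and 1273, 1529 and 1237 in Lb. The 10 elongating spermatid markers, led by OAZ3, the antizyme of late spermatids, summed to 78.6, 69.3 and 70.1 CPM in Ha, 71.6, 73.7 and 63.3 in La, 9945, 7958 and 10468 in Hb, and 6310, 5641 and 4690 in Lb. Both sums were thus low in every 30-day library and high in every 120-day library, and each was higher in every Hb than in every Lb library. Of the round spermatid markers, 1 had no count in Ha, and all other markers had counts in each group. Markers of Sertoli cells (8 genes, led by INHA) and of spermatogonia (11 genes, led by DDX4) were present in all 12 libraries, as in testis tissue. The gene named as leading a list had the highest mean CPM over the 12 libraries, both ages together. OAZ3 and DDX4 did not lead their lists at 30 days, with means of 2.65 and 20.6 CPM in Ha and 4.01 and 13.3 CPM in La.

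One library stood apart in its markers. The 7 Leydig cell markers, led by the steroid hydroxylase CYP17A1, summed to 4021 CPM in Hb1 but to 330 and 266 CPM in Hb2 and Hb3. In Lb the same sum was 4903, 7370 and 3055 CPM, and the fold changes, ratios between members and members' share of the counts at 120 days were also computed without Hb1 and without every other library in turn.

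With age, all members rose in both breeds. TNP1, which eases the removal of histones, had 1, 0 and 0 estimated counts in Ha1, Ha2 and Ha3, and 2, 0 and 0 in La1, La2 and La3. At 120 days it reached 50.3, 26.2 and 57.2 CPM in Hb1, Hb2 and Hb3 and 36.0, 25.7 and 30.3 CPM in Lb1, Lb2 and Lb3. The transcript was close to absent at 30 days and present in all 6 libraries at 120 days. Between the pooled counts the ratio of Hb to Ha was 3261 (95% counting interval 585 to 128875) and that of Lb to La was 1043 (288 to 8615). Intervals and floors of this kind cover counting error only. All counts of TNP1 at 30 days came from Ha1 and La1. Without Ha1 its fitted log2 fold change moved from 11.23 to 12.88 in Hezuo, and without La1 from 9.81 to 12.38 in Landrace. Both of these values are set against 0 counts and are no bound. TNP1 was called in both breeds, with an edgeR adjusted p of 9.91e-06 and 6.48e-07. A call here means an adjusted p under 0.05 with an absolute log2 fold change over 1. Since whole testis was sequenced, fewer cells of a type and less RNA per cell cannot be told apart in any of these comparisons.

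TNP2, the zinc-binding transition protein, had 0.346, 0.404 and 0.467 CPM in Ha1, Ha2 and Ha3 against 779, 421 and 1005 CPM in Hb1, Hb2 and Hb3. In Landrace it had 0.810, 0.759 and 0.486 CPM in La1, La2 and La3 against 644, 409 and 320 CPM in Lb1, Lb2 and Lb3. Each 120-day library lay far above each 30-day library, and Hb2 and Lb3 were the lowest of their groups at 120 days. The log2 fold change from 30 to 120 days was 10.82 ± 0.47 in Hezuo (SE, n = 3 and 3, edgeR adjusted p = 3.51e-06) and 9.42 ± 0.37 in Landrace (edgeR adjusted p = 1.78e-07).

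PRM1 had 0.845, 1.41 and 1.13 CPM in Ha1, Ha2 and Ha3 and 2018, 2114 and 3064 CPM in Hb1, Hb2 and Hb3. Its levels were 2.81, 2.28 and 0.972 CPM in La1, La2 and La3 and 1332, 1114 and 1127 CPM in Lb1, Lb2 and Lb3. Again no 30-day library came near a 120-day library, and Hb3 was the highest of all. PRM1 rose by a log2 fold change of 11.06 ± 0.35 in Hezuo (SE, edgeR adjusted p = 1.68e-06) and 9.25 ± 0.35 in Landrace (edgeR adjusted p = 1.53e-07).

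PRM2, whose protein is made as a precursor and cut to its mature form, had few estimated counts at 30 days, with 1, 4.92 and 3 in Ha1, Ha2 and Ha3 and 0, 6 and 0 in La1, La2 and La3. At 120 days it had 83.7, 55.2 and 99.3 CPM in Hb1, Hb2 and Hb3 and 56.9, 45.0 and 30.4 CPM in Lb1, Lb2 and Lb3. The ages did not overlap, while the breeds did so at 120 days, because Lb1 lay above Hb2. PRM2 rose by a log2 fold change of 9.34 ± 0.45 (SE, edgeR adjusted p = 4.93e-06) in Hezuo and 8.89 ± 0.64 (edgeR adjusted p = 5.54e-06) in Landrace. The ratio of the pooled counts was 652 (counting interval 343 to 1427) in Hezuo and 504 (231 to 1375) in Landrace. All 6 counts of La came from La2, and without it the fitted value of PRM2 in Landrace was 12.94 against 0 counts, which is no bound.

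PRM3 had 0 counts in all 6 libraries at 30 days. At 120 days it had 1.49, 0.693 and 2.16 CPM in Hb1, Hb2 and Hb3 and 2.03, 1.73 and 1.17 CPM in Lb1, Lb2 and Lb3, from 14.6 to 44.2 estimated counts a library. The levels were low in each of these libraries, and those of the breeds overlapped. Against a floor of 3 counts over the group, PRM3 was at least 34.2-fold higher in Hb than in Ha and at least 37.5-fold higher in Lb than in La (edgeR adjusted p = 1.53e-03 and 1.77e-04). With limma on log2(FPKM + 1) its differences of 0.70 and 0.93 fell short of the threshold, and 4 of the 5 members were then called in each breed.

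Thus 5 of 5 members were called higher at 120 days in Hezuo, where 28.2% of the 16548 tested genes were called higher and 23.2% lower in Hb than in Ha. In Landrace, too, 5 of 5 were called higher, beside 27.5% of the 16637 tested genes called higher and 20.1% lower in Lb. The filter on low counts admits TNP1, PRM2 and PRM3 in both breeds, and TNP2 in Hezuo, only through the 120-day libraries, and without it 5 of 5 members were called in each breed as well. Every Hb library lay above every Ha library for 5 of 5 members, as for 38.3% of the tested genes. The same held between Lb and La for 5 of 5 members and for 38% of the tested genes. The scaling moved the genes as a whole in these comparisons: the median log2 fold change of all genes was −0.02 with TMM, −0.32 with library totals and −0.34 with upper quartiles between Ha and Hb, and 0.01, −0.16 and −0.25 between La and Lb. The share of calls that were increases was 54.8% with TMM, 44.1% with totals and 43.7% with upper quartiles in Hezuo, and 57.7% with TMM against 47.1% with upper quartiles in Landrace. Relative to these shifts the increase of each member was far larger.

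Markers of other cell types changed with age between the same libraries as the members. By edgeR, 8 of 8 spermatocyte markers were called higher at 120 days in each breed, and 8 of 10 peritubular and stromal, 5 of 5 endothelial, 5 of 5 macrophage, 4 of 7 Leydig and 4 of 8 Sertoli markers were called lower in Hb than in Ha. In Lb against La, 5 of 10, 3 of 5, 4 of 5, 5 of 7 and 4 of 8 were called lower in the same order, and 1 of 10 peritubular and stromal markers was called higher. Spermatogonial markers went both ways, with 3 of 11 called higher and 6 lower in Hb than in Ha, and 4 higher and 5 lower in Lb than in La. At 30 days the sums were 4737, 4613 and 4523 CPM in Ha and 6939, 6220 and 7755 CPM in La for peritubular and stromal markers, 10098, 9641 and 8777 CPM and 13738, 9386 and 11420 CPM for Leydig markers, and 1271, 1217 and 1670 CPM and 2654, 3234 and 2969 CPM for Sertoli markers. Endothelial markers summed to 670, 685 and 618 CPM in Ha and 799, 631 and 770 CPM in La, and macrophage markers to 124, 101 and 107 CPM and 123, 107 and 117 CPM. Spermatogonial markers summed to 370, 366 and 305 CPM in Ha and 224, 224 and 235 CPM in La, less than at 120 days. DDX4 alone had a mean of 20.6 CPM in Ha and 13.3 CPM in La, and 566 CPM in Hb and 388 CPM in Lb. The sums at 120 days are given with the comparison of the breeds, and the part of these markers in the increase of the members was not tested.

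**Figure D1:**
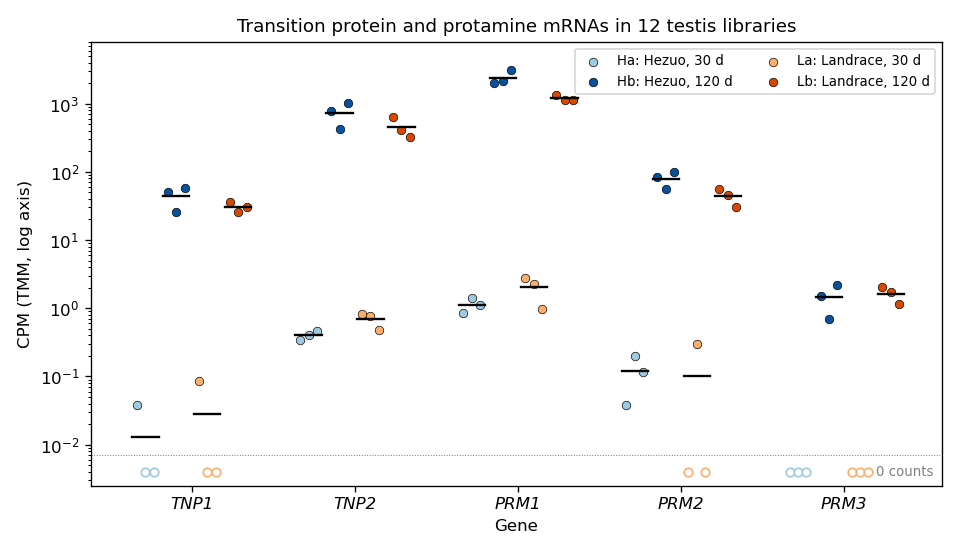
The plot gives CPM on a log axis for each member in each of the 12 libraries, coloured by breed and age, with a bar at the mean of the 3 libraries of a group and open circles for libraries with 0 counts. TNP2 lies between 320 and 1005 CPM at 120 days and under 1 CPM at 30 days, and PRM3 is seen only at 120 days.

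Per unit of length, PRM1 was the most abundant member in each 120-day library. Its FPKM was 3393, 4078 and 5433 in Hb1, Hb2 and Hb3, which ranked it 2, 2 and 1 among all coding genes, and 2572, 2147 and 2429 in Lb1, Lb2 and Lb3, where it ranked 3, 9 and 6. TNP2 followed with 205, 127 and 279 FPKM in Hb and 195, 124 and 108 FPKM in Lb. No other member came close to PRM1, and TNP2 exceeded PRM2 in each of these libraries. PRM2 had 99.7, 75.5 and 125 FPKM in Hb and 77.8, 61.5 and 46.5 FPKM in Lb, and TNP1 had 69.4, 41.4 and 83.3 FPKM in Hb and 57.0, 40.6 and 53.6 FPKM in Lb. PRM2 exceeded TNP1 within each Hb library and within Lb1 and Lb2, while TNP1 was the higher in Lb3. Over the libraries of a breed their ranges overlapped. PRM3 was last, with 0.63, 0.33 and 0.97 FPKM in Hb and 1.25, 0.84 and 0.66 FPKM in Lb. Of the summed FPKM of the 5 members, PRM1 made up 90.04%, 94.3% and 91.8% in Hb1, Hb2 and Hb3 and 88.6%, 90.5% and 92.1% in Lb1, Lb2 and Lb3.

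At 30 days the breeds were compared next. Only PRM1 and TNP2 passed the filter on low counts in Ha vs La, so 2 of 5 members were tested. Without the filter 4 members were tested, and with all 12 libraries in one fit 5, and 0 were called in either. The values of PRM1 given above overlapped between Ha and La, as La3 lay within the range of Ha, while every La library lay above every Ha library in CPM for TNP2, as for 20.8% of the tested genes. This did not hold on other scales. La3 and Ha3 were equal at 0.18 FPKM, and La3 lay below Ha3 in the share of all mRNA counts (5.09e-05% and 5.11e-05%). TNP2 rested on 9, 10 and 12 counts in Ha and 19, 15 and 12 counts in La, and the Ha libraries alone would not have passed it through the filter. The log2 fold change was 0.82 ± 0.44 for PRM1 (SE, edgeR adjusted p = 0.218) and 0.73 ± 0.40 for TNP2 (edgeR adjusted p = 0.225). Neither was called by edgeR, and 0 of 2 had an unadjusted p under 0.05; DESeq2 and limma also called 0. Among the 15648 tested genes, 3.6% were called higher and 4.01% lower in La. TNP1, PRM2 and PRM3 were at or close to 0 in both groups, and a difference between the breeds was not detectable at this depth.

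At 120 days, 4 of the 5 members had a lower mean in Landrace. The mean CPM of PRM1 was 2398 ± 578 in Hb and 1191 ± 122 in Lb (SD, n = 3), and every Lb library lay below every Hb library, as for 16.2% of the tested genes. The other members overlapped between the breeds. Mean TNP2 was 735 ± 295 CPM in Hb and 457 ± 167 in Lb, mean TNP1 44.6 ± 16.3 and 30.7 ± 5.16, and mean PRM2 79.4 ± 22.4 and 44.1 ± 13.2. For PRM3 the means were 1.45 ± 0.735 in Hb and 1.64 ± 0.436 in Lb.

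None of the 5 members was called between Hb and Lb by edgeR, DESeq2 or limma, although 2 of 5, PRM1 and PRM2, had an unadjusted p under 0.05 in edgeR, as had 4153 of the 16311 tested genes. Of these tested genes, 2.65% were called higher and 1.2% lower in Lb, in all 628, a number that ran from 97 to 1029 with a library left out. PRM1 had a log2 fold change of −0.97 ± 0.19 (SE, 95% interval −1.33 to −0.60, edgeR adjusted p = 0.03003), which passed on its p-value and fell just short of the required size. It was called without Hb1 (−1.09, edgeR adjusted p = 0.0282), without Hb2 (−1.03, edgeR adjusted p = 0.0299) and with all 12 libraries in one fit (−1.01, edgeR adjusted p = 0.0263). Its adjusted p was over 0.05 without Hb3 (0.0768), Lb1 (0.0737), Lb2 (0.123) or Lb3 (0.106), and with limma on log2(FPKM + 0.1) (0.0755). Over all alternatives its log2 fold change ran from −1.09 to −0.75 and its adjusted p from 8.7e-05 to 0.123. PRM2 had −0.80 (95% interval −1.33 to −0.28, edgeR adjusted p = 0.116), TNP2 −0.64 (−1.30 to 0.03, edgeR adjusted p = 0.277) and TNP1 −0.49 (−1.04 to 0.06, edgeR adjusted p = 0.310). The interval of PRM3 ran from −0.73 to 1.21 around 0.24 (edgeR adjusted p = 0.796), so that a difference in either direction was within the spread of the libraries.

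Together the members took up 0.247%, 0.249% and 0.376% of all mRNA counts in Hb1, Hb2 and Hb3 and 0.193%, 0.149% and 0.156% in Lb1, Lb2 and Lb3. Every Hb library thus lay above every Lb library in this share. The means were 0.291% ± 0.0737 in Hb and 0.166% ± 0.0239 in Lb (SD, n = 3). An exact two-sided permutation test of the share gave p = 0.1, the smallest it can give with 3 against 3 libraries. PRM1 carried most of the share, with 68.8%, 80.8% and 72.5% of the members' counts in Hb and 64.3%, 69.8% and 74.7% in Lb. The shares of TNP1, TNP2, PRM2 and PRM3 each overlapped between the breeds, and that of PRM3 had the higher mean in Lb. At 30 days the joint share was at most 2.2e-04% in Ha and 3.9e-04% in La.

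Other cell markers moved between the same 6 libraries. The summed level of the 10 elongating spermatid markers and that of the 10 round spermatid markers, given above, were lower in Lb, and the median log2 fold change of the tested genes was −0.76 for the elongating and −0.40 for the round spermatid list, beside 0.00 for all genes. Among the elongating markers, 2 of 10 were called lower in Lb by edgeR and DESeq2 and 2 or 1 by limma, with 8 at an unadjusted p under 0.05 in edgeR. Of the round markers, 1 of 10 was called by edgeR and DESeq2 and 0 by limma, with 4 at an unadjusted p under 0.05. The called genes were named after their values were seen. They were AKAP4, an anchoring protein of the fibrous sheath (−1.10, edgeR adjusted p = 0.0283), GAPDHS, the sperm form of a glycolytic enzyme (−1.53, edgeR adjusted p = 0.0118), and the thioredoxin TXNDC8 (−1.01, edgeR adjusted p = 0.0460). AKAP4 was not called without Hb3, Lb2 or Lb3 (−1.0001 to −0.97, edgeR adjusted p 0.0934 to 0.115), nor with limma on log2(FPKM + 0.1) (−1.01, limma adjusted p = 0.0520) or all 12 libraries in one fit (−1.14, 0.0842), GAPDHS without Lb2 (−1.58, edgeR adjusted p = 0.0583). TXNDC8 was not called without Hb2, Hb3, Lb1, Lb2 or Lb3 (−1.15 to −0.86, edgeR adjusted p 0.0532 to 0.149), with limma on log2(FPKM + 1) or log2(FPKM + 0.1) (−0.86 and −0.89) or with totals in place of TMM (−0.96).

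Somatic markers were compared in the same way. The 10 peritubular and stromal markers, led by the collagen COL3A1, summed to 601, 352 and 253 CPM in Hb and to 3071, 2989 and 2545 CPM in Lb, and 5 of 10 were called higher by edgeR, 6 by DESeq2 and 5 or 6 by limma. The 7 Leydig markers had a median log2 fold change of 1.95, but their sums overlapped, as Hb1 lay above Lb3, and 0 of 7 were called by edgeR, DESeq2 or limma, with 3 at an unadjusted p under 0.05. For the 8 Sertoli markers, which summed to 401, 576 and 464 CPM in Hb and 602, 748 and 634 CPM in Lb, edgeR called 0 of 8, DESeq2 1, and limma 0 or 1 by the amount added to FPKM, with 3 at an unadjusted p under 0.05 in edgeR. The 5 endothelial markers, led by VWF, summed to 171, 303 and 185 CPM in Hb and 315, 494 and 276 CPM in Lb, which overlap, with 1 of 5 called higher by edgeR and DESeq2 and 0 by limma. The 5 macrophage markers, led by CSF1R, summed to 17.3, 20.02 and 10.6 CPM and 21.2, 37.6 and 35.6 CPM, with 1 of 5 called higher by edgeR and limma and 2 by DESeq2. The 8 spermatocyte markers, led by PIWIL1, summed to 774, 673 and 647 CPM in Hb and 500, 482 and 489 CPM in Lb, and edgeR called 0 of 8, DESeq2 1 and limma 0, with 4 at an unadjusted p under 0.05. For spermatogonia the sums were 848, 817 and 811 CPM and 698, 634 and 650 CPM, with 0 of 10 tested markers called by edgeR, DESeq2 or limma and 2 at an unadjusted p under 0.05. The median log2 fold change of these markers was 0.18, opposite in direction to the sums. DDX4 alone made up a mean of 566 CPM of the sum in Hb and 388 CPM in Lb. No marker of these lists was at 0 in Hb or Lb. Their part in the difference of PRM1 between the breeds was not tested.

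Set beside the spermatid lists, the members lay on both sides of the list medians. Relative to the median of the elongating spermatid markers, the log2 fold change between Hb and Lb was −0.20 for PRM1, −0.04 for PRM2, 0.13 for TNP2, 0.28 for TNP1 and 1.004 for PRM3. Relative to the round spermatid markers it was −0.56, −0.40, −0.23, −0.08 and 0.64 in the same order. The markers themselves ran from −1.53 to −0.10 in the elongating and from −1.39 to 0.07 in the round spermatid list. PRM1, PRM2, TNP2 and TNP1 lay within both ranges. PRM3 lay above both, though its own value was −0.09 without Hb2. This comparison was added after the data were seen and carries no test.

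**Figure D2:**
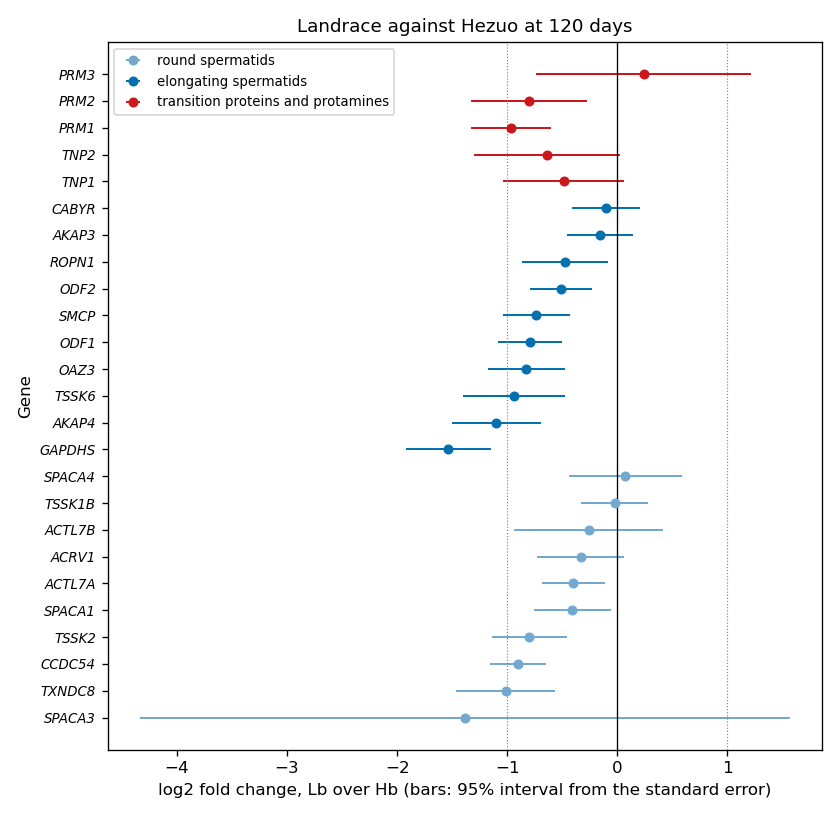
The plot shows the log2 fold change of Lb over Hb at 120 days for the 5 members, the 10 elongating and the 10 round spermatid markers, with bars for the 95% interval from the standard error and dotted lines at −1 and 1. PRM1 lies at −0.97 with an interval from −1.33 to −0.60, and the interval of PRM3 spans 0.

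The age effect itself was compared between the breeds with the interaction of breed and age over all 12 libraries. PRM1, with the levels given above, had an interaction of −1.83 on the log2 scale (SE 0.44, 95% interval −2.70 to −0.97, edgeR adjusted p = 0.0322), so that its increase with age was smaller in Landrace. It was the member called, 1 of 5, beside 3.51% of the 17332 tested genes called with an interaction above 0 and 1.62% with one below 0, in all 890, or 437 to 1242 with a library left out. The call was lost without any one of Ha1, Ha2, Ha3, Hb3, La1, La2, Lb1, Lb2 or Lb3 (−2.02 to −1.496, edgeR adjusted p 0.05002 to 0.0913). Limma on log2(FPKM + 0.1) also gave no call (−1.51, limma adjusted p = 0.0788), and over all alternatives the adjusted p ran from 5.4e-04 to 0.0913. TNP2 had −1.41 (SE 0.62, edgeR adjusted p = 0.1901). The interactions of PRM1 and TNP2 include the difference of the breeds at 30 days, 0.82 and 0.73, which was not called. At that age PRM1 had 22 to 35 counts a library in Ha and 24 to 66 in La. TNP2 had 9 to 12 counts in Ha and 12 to 19 in La. The spermatid lists also had medians below 0. The median interaction was −1.89 for the 10 round spermatid markers, with 2 called below 0. For the 10 elongating spermatid markers it was −1.01, with 1 called below 0, and for all genes 0.02. At 30 days the round spermatid markers summed to a mean of 3.54 CPM in Ha and 3.87 CPM in La. Only 3 of these 10 passed the filter in Ha vs La, so no size is drawn from their median. The part of either list in the interaction of PRM1 was not tested. For TNP1, PRM2 and PRM3 the interaction rests on 30-day groups with 9 counts or fewer, and no size is drawn from it.

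The proportions of the members to each other were compared at 120 days on the FPKM scale, over 5 pairs, by exact two-sided permutation tests whose smallest possible p with 3 against 3 libraries is 0.1. PRM1 exceeded PRM2 34.01-, 54.0- and 43.5-fold in Hb1, Hb2 and Hb3 and 33.1-, 34.9- and 52.3-fold in Lb1, Lb2 and Lb3. These ratios overlapped between the breeds, and the log2 ratio of PRM2 to PRM1 differed by 0.14 (exact p = 0.6, 0.75 after Benjamini-Hochberg adjustment over the 5 pairs). PRM1 exceeded TNP1 48.9-, 98.5- and 65.2-fold in Hb and 45.1-, 52.9- and 45.3-fold in Lb, with Hb2 the highest. The log2 ratio of TNP1 to PRM1 differed by 0.51 (exact p = 0.2, adjusted 0.5), and that of TNP2 to PRM1 by 0.33 (exact p = 0.5, adjusted 0.75). Between the transition proteins, the log2 ratio of TNP2 to TNP1 was 1.56, 1.62 and 1.75 in Hb and 1.77, 1.60 and 1.01 in Lb (difference −0.18, exact p = 0.8, adjusted 0.8). The ratio of PRM3 to PRM1 was the one without overlap, at −12.37, −13.55 and −12.44 in Hb and −11.00, −11.30 and −11.82 in Lb on the log2 scale (difference 1.41, exact p = 0.1, adjusted 0.5). Its numerator rested on under 1.3 FPKM in each library.

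Over the 12 libraries the log2 CPM of any 2 members correlated with Pearson's r between 0.978 and 0.998, a description in which the libraries share the split into ages. Over the 6 libraries at 120 days, where members still share breed, library and depth, r was 0.95 for PRM2 and TNP2, 0.91 for TNP1 and TNP2 and 0.86 for PRM1 and PRM2. It was 0.81 for TNP1 and PRM2, 0.75 for PRM1 and TNP2 and 0.69 for TNP1 and PRM1. PRM3 went least with the others, with r of 0.02 to PRM1, 0.39 to PRM2, 0.57 to TNP1 and 0.61 to TNP2. Among the libraries of Hb, Hb3 held the highest level of each of the 5 members, and Hb2 the lowest of each but PRM1.

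For the search for similar genes, loci without a gene symbol or with only a LOC or MSTRG identifier were left out. Genes with the pattern most like that of a member were then sought among 15091 others by Pearson's r of log2 CPM over the 12 libraries. For TNP1 they were CATSPERZ, a subunit of the sperm calcium channel, the sperm surface protein ADAM2, and FAM221A, with r = 0.999 for each, and for TNP2 FSCN3, a testis fascin, ROPN1, a protein of the fibrous sheath, and GSTM3, with r = 0.9997, 0.999 and 0.999. PRM1 was followed most closely by SPATA3, ARMC12 and C3H16orf82 (r = 0.9997, 0.999 and 0.998), PRM2 by GTSF1L, AQP11, a water channel, and PRSS58 (0.996, 0.996 and 0.995), and PRM3 by DDX28, RNF32 and C9H11orf88 (0.998, 0.996 and 0.994). High values were common, since 1099 genes exceeded r = 0.98 with TNP1, 1084 with TNP2, 915 with PRM1, 810 with PRM2 and 480 with PRM3. Within the 6 libraries at 120 days r was 0.994 between PRM1 and SPATA3, 0.985 between PRM3 and DDX28, 0.969 between TNP2 and FSCN3, 0.961 between PRM2 and AQP11, and 0.954 between TNP1 and CATSPERZ, the highest of each 3. The lowest were 0.830 between PRM1 and ARMC12 (rank 1207 among all genes compared), 0.861 between TNP1 and ADAM2 (rank 727), 0.872 between PRM2 and GTSF1L (rank 1169), 0.873 between TNP2 and GSTM3 (rank 730) and 0.874 between PRM3 and C9H11orf88 (rank 121).

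PRM1, PRM2, PRM3 and TNP2 lie side by side, an arrangement the selection by symbol did not use. On Sscrofa11.1, PRM1 (NCBI gene 397487) lies at chr3:31861087-31861529, PRM2 (397486) at chr3:31864350-31864959, PRM3 (100627438) at chr3:31865159-31866717 and TNP2 (406180) at chr3:31868517-31871530. These 4 members share a stretch of 10444 bp, with 199 bp between PRM2 and PRM3, while TNP1 (100513764) lies apart at chr15:119037492-119038099. Members that are neighbours differed widely in level, from PRM1 at a mean of 4301 FPKM to PRM3 at 0.643 FPKM in Hb. The counts of PRM3 were not whole in 6 of the 6 libraries where it had any, those of PRM2 in 7 of 10, those of TNP2 in 2 of 12, those of TNP1 in 1 of 8 and those of PRM1 in 0 of 12, so that counts divided between features may bear on PRM3 and PRM2 most.

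Of the 4 other genes tested within 100 kb, 2 fell and 2 rose with age in each breed by edgeR. SOCS1, an inhibitor of cytokine signalling, lies next to TNP2 at chr3:31879143-31883041 and fell with age by a log2 fold change of −1.71 ± 0.35 in Hezuo and −1.51 ± 0.33 in Landrace (SE, edgeR adjusted p = 3.52e-03 and 3.69e-03). RMI2, a partner of the BLM helicase, at chr3:31807717-31814869, also fell, by −1.77 and −1.34 on the log2 scale. CLEC16A (1.19 and 1.51) and LOC102157603 (1.70 and 1.90) rose, by far less than the members. With limma on log2(FPKM + 1), neither was called in Hezuo (0.64 and 0.21, limma adjusted p = 1.87e-03 and 0.0949), nor was LOC102157603 in Landrace (0.37). On log2(FPKM + 0.1) they had 0.71 and 0.81 in Hezuo, again without a call, and totals or upper quartiles in place of TMM gave 0.87 for CLEC16A in Hezuo. Between Hb and Lb, 0 of 4 were called by edgeR, DESeq2 or limma, with 1 at an unadjusted p under 0.05. LOC110260110 had counts in 1 library and was not tested, and 0 deposited lncRNAs lie in this window.

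**Figure D3:**
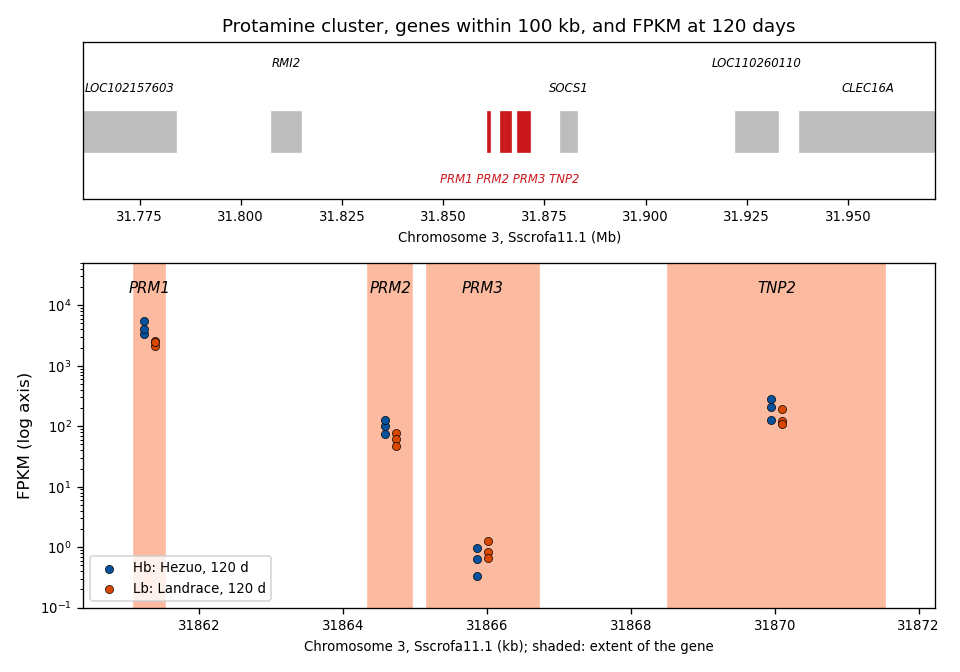
The upper panel maps the genes within 100 kb of the protamine cluster on chromosome 3 of Sscrofa11.1 in Mb, with members in red. The lower panel gives, on a log axis, the FPKM of the 4 clustered members in each library of Hb and Lb over the extent of each gene, from PRM1 at 2147 to 5433 down to PRM3 at 0.33 to 1.25.

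Further transition proteins are described in the table without a gene symbol of their own, and they were found by description after the files were read. MSTRG.24449 had 19.7, 15.8 and 28.2 CPM in Hb and 16.4, 14.7 and 13.8 CPM in Lb, against 8 counts in Ha and 0 in La. It was 196-fold higher in Hb than in Ha (counting interval 99.2 to 455) and at least 340-fold higher in Lb than in La. LOC100511430 had 50.3, 53.9 and 71.3 CPM in Hb and 34.7, 32.7 and 33.4 CPM in Lb, a ratio between the ages of 1469 (502 to 7129) in Hezuo and 228 (124 to 477) in Landrace. Like PRM1, LOC100511430 did not overlap between the breeds at 120 days and was not called, at a log2 fold change of −0.76 ± 0.17 (SE, edgeR adjusted p = 0.0477).

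The histones that the members replace include testis forms, which were also matched by description because 0 of the 8 listed symbols occur in the table. These loci belong to families with near-identical copies, so their values are uncertain. Histone H1t (LOC110261479), a linker histone of spermatocytes and early spermatids, had 134, 160 and 76.1 CPM in Ha, 30.1, 31.1 and 25.4 CPM in La, 832, 668 and 576 CPM in Hb and 777, 1154 and 1284 CPM in Lb. It was thus present in all libraries at 30 days, and lower in every La than in every Ha library. It rose with age by 2.51 ± 0.29 in Hezuo and 5.26 ± 0.23 in Landrace on the log2 scale (SE, edgeR adjusted p = 2.4e-04 and 3.3e-07), and was called lower in La than in Ha (−2.11, edgeR adjusted p = 2.26e-03). Of histones H2B type 1-A (2 loci) and H2A type 1-A (1 locus), 3 of 3 rose with age in both breeds, by 4.76 to 4.88 in Hezuo and 7.82 to 7.93 in Landrace, and 3 of 3 were called lower in La than in Ha (−2.68 to −2.41). The last calls were lost without La3 for LOC100152135 (−2.37, edgeR adjusted p = 0.0539), without Ha1, Ha2, La1, La2 or La3 for LOC100152878 (−3.14 to −2.17, 0.0508 to 0.110) and without Ha2, La1, La2 or La3 for LOC100153329 (−2.77 to −1.82, 0.0591 to 0.0740). LOC100152878 was not called with limma either (−1.85 and −2.30, limma adjusted p = 0.0691 and 0.0876). The 8 spermatocyte markers, led by PIWIL1, also summed to less in La, with 31.8, 35.8 and 19.9 CPM in Ha and 16.2, 14.2 and 12.9 CPM in La. Of these markers, 4 of 8 were called lower by edgeR and DESeq2 and 0 or 3 by limma. By edgeR, 3 of 8 Sertoli and 1 of 7 Leydig markers were called higher in La, and 1 of 10 tested spermatogonial markers lower. The part of all these markers in the values of the histones was not tested. Among 7 loci of H2A-Bbd, a histone variant of late spermatids, 5 could be tested between Hb and Lb, and 1 of 5 was called by edgeR, 2 by DESeq2 and 1 by limma. The gene called by edgeR, LOC100624295, named after its values were seen, had 40.7, 29.5 and 38.7 CPM in Hb and 8.48, 10.5 and 7.78 CPM in Lb, without overlap (log2 fold change −1.98 ± 0.20, edgeR adjusted p = 6.27e-03).

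Genes that transcribe the spermatid programme differed in their change with age. Of 8 listed genes in the table, 5 rose and 0 fell with age in each breed, with a median log2 fold change of 2.59 in Hezuo and 2.35 in Landrace, beside −0.02 and 0.01 for all genes. RFX2, a transcription factor of spermatids, rose by 5.95 and 6.18, CREM, the activator that binds protamine promoters, by 3.38 and 3.28, and KDM3A, the histone demethylase needed at TNP1 and PRM1, by 1.79 and 1.42. TAF7L, a testis subunit of TFIID, had 0.10 and 0.30 and was not called. Its value in Hezuo was below 0 with totals (−0.19) or upper quartiles (−0.21) in place of TMM, with limma (−0.37 and −0.39) and without Ha2 (−0.027) or Hb2 (−0.094), and its value in Landrace was just below 0 with limma (−0.0032 and −0.0024). Between Hb and Lb, 0 of 8 were called by edgeR, DESeq2 or limma, with 5 at an unadjusted p under 0.05, and their values ran from −0.52 to −0.33.

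Genes that store and translate spermatid mRNAs numbered 8, of which 5 rose in Hezuo and 4 in Landrace (medians 2.44 and 1.80). The Y-box proteins that bind stored protamine mRNA rose, YBX2 by 7.92 and 8.33 and YBX3 by 4.09 and 3.48. PAIP2 (0.57 and 0.39), which restrains poly(A)-binding protein, and the RNA-binding ELAVL1 (0.32 and 0.37, in Hezuo −0.17 with limma on either scale) were not called. In Hb vs Lb, YBX2 had −0.59 (edgeR adjusted p = 0.0387) and was not called, and 1 of 8, PABPC1, was. PABPC1, the poly(A)-binding protein, named after its values were seen, had 29.6, 27.2 and 26.3 CPM in Hb and 14.2, 13.4 and 12.2 CPM in Lb, without overlap. Its log2 fold change was −1.02 ± 0.16 (SE, edgeR adjusted p = 0.0203). The call was lost without Hb1, Hb3, Lb1, Lb2 or Lb3 (−1.06 to −0.97, edgeR adjusted p 0.0365 to 0.0819), with totals in place of TMM (−0.95, 0.0234), and with limma on log2(FPKM + 1) or log2(FPKM + 0.1) (−0.67 and −0.87, limma adjusted p = 0.0194 and 0.0265).

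Genes that acetylate, ubiquitylate, exchange or remove histones numbered 13, and 1 of them, TSSK6, is also among the elongating spermatid markers. With age, 10 rose and 1 fell in Hezuo and 9 rose and 1 fell in Landrace (medians 1.93 and 1.63). PHF7, a ubiquitin ligase that acts before histone removal, rose by 7.56 and 8.12, BRDT, which binds acetylated histones, by 5.57 and 5.37, HSPA2, a chaperone of transition proteins, by 3.44 and 4.13, and PSME4, an activator of the proteasomes that degrade acetylated histones, by 1.93 and 1.60. None of the 13 was called in Hb vs Lb by edgeR, DESeq2 or limma, with 5 at an unadjusted p under 0.05. For the enzymes that phosphorylate protamines, SRPK1 (1.79 and 1.13) and CAMK4 (1.65 and 1.42) rose, 2 of the 3 listed, and the phosphatase PPP1CC (0.23 and 0.32) was not called, with a value in Hezuo below 0 under limma (−0.26 on either scale), totals (−0.083) and upper quartiles (−0.090). In Landrace, SRPK1 fell short of the required size with totals (0.97) or upper quartiles (0.87), and CAMK4 did so in both breeds with limma on log2(FPKM + 1) (0.35 and 0.32) or log2(FPKM + 0.1) (0.92 and 0.89). Between Hb and Lb, 0 of these 3 were called by edgeR, DESeq2 or limma, with 1 at an unadjusted p under 0.05.

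At 30 days none of the genes of these 4 lists was called between Ha and La by edgeR, among 8, 8, 12 and 3 tested, with 3, 5, 6 and 1 at an unadjusted p under 0.05, as were 5703 of the 15648 tested genes. DESeq2 called 1, PHF7 (−1.07, DESeq2 adjusted p = 0.0190), and limma 0. Without Ha3, edgeR called PHF7 (−1.41, edgeR adjusted p = 6.78e-03), HSPA2 (−1.11, 8.2e-04) and YBX2 (−1.21, 0.0306) lower in La, and YBX2 was also called with all 12 libraries in one fit (−1.02, 0.0142). The part of the spermatocyte markers given above in these values was not tested.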

How the data were processed

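RNA of 12 testes was measured by RNA-seq with ribosomal RNA removed and strand kept. The authors filtered reads with fastp 0.18.0, removed ribosomal reads with Bowtie2 2.2.8, mapped the rest with HISAT2 2.1.0 to Sscrofa11.1 and assembled transcripts with StringTie 1.3.4. The authors deposited estimated counts, not normalized and not all whole, and FPKM values for each coding gene in each library. FPKM was computed with StringTie, and the tool that gave the counts is not given in the sources used here.

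Counts were rounded and, for each comparison (of the ages within a breed, and of the breeds at an age), tested with edgeR 4.0.16 in R 4.3.3 (filterByExpr with a minimum of 10, TMM, quasi-likelihood test, Benjamini-Hochberg adjustment over all tested genes). The interaction used all 12 libraries. The standard error is the absolute log2 fold change divided by the square root of the F statistic, and it is not given where a group has 0 counts. CPM for correlations had a prior count of 2. Ratios added 0.01 to FPKM. Replicates were separate boars. No pair of libraries within a group was alike within sampling noise (chi-square per degree of freedom 17.8 to 95.0 over 12 pairs). Alternatives were DESeq2 1.42.0, limma 3.58.1 on log2(FPKM + 1) and log2(FPKM + 0.1), other filters and scalings, totals without the members and the 20 most abundant mRNAs, 1 fit of all libraries, the replicate number as a block, and each library left out. The script for the tests was tested on simulated data. Python 3.11.15, numpy 2.4.6, pandas 2.3.3, scipy 1.17.1 and matplotlib 3.10.9 were used. Gene positions come from RefSeq for the same build, matched by gene number for 5 of 5 members.

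Genes were named by a rule: the members, up to 4 genes with the most counts of each list (transcription of the spermatid programme, storage and translation of spermatid mRNA, histone acetylation, ubiquitylation, exchange and removal, phosphorylation of protamines), genes within 100 kb, and the 3 most alike genes of each member. Of the 9 listed transcription genes 8, and of the 12 elongating spermatid markers 10, were found by symbol. The members and lists were chosen with earlier results of these data known.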

Additional observations from a re-analysis of the deposited data

Results flagged for a closer look

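The change with age differed between the breeds by the test of the interaction of breed and age (edgeR, all 12 libraries) for the genes below, given on the log2 scale as Landrace minus Hezuo. The rise was smaller in Landrace for PRM1 (−1.83), SPATA3 (−2.26) and the poly(A)-binding protein PABPC1 (−1.58, edgeR adjusted p = 0.0102). The value of PRM1 includes the difference of the breeds at 30 days (0.82), which was not called. The rise was also smaller for the spermatid markers OAZ3 (−1.45), TSSK2 (−2.05) and ACRV1 (−2.96). That of ACRV1 was set against 3 counts over Ha, so that its size is no bound. The rise was larger in Landrace for histone H1t (LOC110261479, 2.73, edgeR adjusted p = 3.63e-03), for the H2B type 1-A loci LOC100152135 (2.93) and LOC100152878 (3.07) and for the H2A type 1-A locus LOC100153329 (3.10). Of the marker lists, 5 of 10 peritubular and stromal, 2 of 11 spermatogonial, 1 of 5 endothelial and 1 of 5 macrophage markers were also called, each with an interaction above 0.

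The calls of PABPC1 and H1t were kept when any single library was left out, though limma on log2(FPKM + 1) gave −0.96 for PABPC1. Those of the others were lost for PRM1 without Ha1, Ha2, Ha3, Hb3, La1, La2, Lb1, Lb2 or Lb3 (edgeR adjusted p 0.05002 to 0.0913), for SPATA3 without Ha1, Ha2, Ha3, Hb3, La1, La2, Lb2 or Lb3 (0.0508 to 0.184), for TSSK2 without Ha2 or La1 (0.0518 to 0.0525), for ACRV1 without Ha1, Ha3, Hb1, La1, La2 or Lb3 (0.0516 to 0.102), and for OAZ3 without any library but Ha1 and Hb2 (0.0554 to 0.113). LOC100152135 lost its call without Ha2, Hb3, La1, La2, La3 or Lb2 (0.050003 to 0.0571), LOC100152878 without any but Ha3, Hb2 and La1 (0.0528 to 0.102), and LOC100153329 without any but Ha3, Hb1, Hb2 and Lb1 (0.0544 to 0.0772). Limma on log2(FPKM + 1) and log2(FPKM + 0.1) called neither ACRV1 (−0.42 and −1.34, limma adjusted p = 0.282 and 0.0557) nor LOC100152878 (2.39 and 2.85, 0.0615 and 0.0735). OAZ3 was not called with limma on log2(FPKM + 0.1) (−1.34, 0.0666), totals (−1.30, edgeR adjusted p = 0.0514), upper quartiles (−1.39, 0.0501) or totals without abundant mRNAs (−1.43, 0.0503).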

How the results depend on the processing

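For the members, 360 log2 fold changes under an alternative kept their direction and side of the threshold, 13 no longer passed, 3 newly passed and 5 reversed. For other named genes these numbers were 3268, 113, 18 and 69. A further 6 values of the members moved, all when set beside the spermatid lists. Among them TNP1 (0.28) and TNP2 (0.13) changed sign relative to the elongating spermatid markers. The 360 include the values of that comparison that did not move. None of the reversed values was called as reported, and the cause was not tested. Members called in Hb vs Lb came to 1 with all 12 libraries in one fit and 0 to 1 with a library left out. Members called for the interaction came to 0 with limma on log2(FPKM + 0.1) and with the replicate number as a block, and 0 to 1 with a library left out; the cause was not tested. Of the 3 genes most like a member, Spearman's rho kept 0 for TNP1 and PRM3 and 1 for PRM2 and TNP2, and log2(FPKM + 1) kept 1 for PRM1, PRM2, TNP1 and TNP2. Under the block, PRM1 had an interaction of −1.83 with an edgeR adjusted p of 0.0594, PABPC1 in Hb vs Lb −1.02 with 0.0690, and PRM1 in Hb vs Lb −0.95 with 0.0825. Calls were also lost under the block for AKAP4 (0.0766) and TXNDC8 (0.0976) in Hb vs Lb, LOC100153329 in Ha vs La (0.0762), and SPATA3 (0.0555), LOC100152878 (0.0568) and LOC100153329 (0.0573) in the interaction, and 154 genes were called in Hb vs Lb. Deviations of same-numbered libraries from their group means correlated little (r −0.038 to 0.053 over 18 pairs). The labels do not say whether the numbers pair boars, and these values cannot decide it. The number of all genes called was 628 in Hb vs Lb as reported, 1176 with DESeq2, 1258 with one fit and 97 to 1029 with a library left out, 1192 in Ha vs La against 502 with limma on log2(FPKM + 1), and 890 for the interaction against 1364 with DESeq2 and 437 to 1242 with a library left out. With totals in place of TMM the median interaction of all genes moved from 0.02 to 0.17 and the share of calls above 0 from 68.4% to 81.6%. Depth limits PRM3 and the 30-day values of TNP1 and PRM2.

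Reversed with limma on log2(FPKM + 1) were, for Ha vs Hb, ELAVL1 (−0.17), TAF7L (−0.37) and PPP1CC (−0.26), for La vs Lb TAF7L (−0.0032), for Ha vs La SOCS1 (−0.060), for Hb vs Lb ELAVL1 (0.030), and for the interaction MSTRG.24449 (−0.018), GTSF1L (−0.46), CREM (0.0044) and YBX2 (−0.087). On log2(FPKM + 0.1) they were, in the same comparisons, ELAVL1 (−0.17), TAF7L (−0.39), PPP1CC (−0.26), TAF7L (−0.0024), SOCS1 (−0.079), ELAVL1 (0.030), GTSF1L (−0.24) and CREM (0.035). With totals they were TAF7L (−0.19) and PPP1CC (−0.083) in Ha vs Hb, SOCS1 (−0.025) and FAM221A (−0.032) in Ha vs La, and CREM (0.055) in the interaction, and with upper quartiles TAF7L (−0.21) and PPP1CC (−0.090) in Ha vs Hb. DESeq2 reversed CLEC16A in Hb vs Lb (−0.012) and ELAVL1 (−0.016) and PRM3 (−0.033) in the interaction, one fit CLEC16A in Hb vs Lb (−0.043), totals without abundant mRNAs PSME4 in Ha vs La (0.0059), and the block FAM221A in Ha vs La (−0.014). With each library left out in turn, values of both signs were seen in Ha vs La for ADAM2 (−0.34 to 0.22), CAMK4 (−0.19 to 0.061), CATSPERZ (−0.27 to 0.50), DDX28 (−0.079 to 0.034), FAM221A (−0.18 to 0.15), KDM3A (−0.043 to 0.021), PAIP2 (−0.12 to 0.0097), PSME4 (−0.11 to 0.13), RMI2 (−0.044 to 0.26) and SOCS1 (−0.077 to 0.22). In Hb vs Lb this held for CLEC16A (−0.11 to 0.075), PRM3 (−0.092 to 0.65) and SOCS1 (−0.064 to 0.42), in Ha vs Hb for TAF7L (−0.094 to 0.22), and in the interaction for BRDT (−0.32 to 0.036), CREM (−0.20 to 0.049), GTSF1L (−0.48 to 2.72), LOC102157603 (−0.36 to 0.46), PPP1CC (−0.0069 to 0.20), PRM2 (−1.04 to 3.63), PRM3 (−0.16 to 0.63), PRSS58 (−0.57 to 0.16), RFX2 (−0.013 to 0.42), SOCS1 (−0.14 to 0.37) and TNP1 (−3.07 to 1.16).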
